A study of Mus musculus with 12 samples.

Results

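Complex III, the cytochrome bc1 complex of the mitochondrial inner membrane, and cytochrome c, the small carrier that takes electrons from it, were followed through the 9 nuclear genes of the complex measured here and the gene of somatic cytochrome c. These 10 genes were Uqcrc1, Uqcrc2, Uqcrfs1, Cyc1, Uqcrb, Uqcrq, Uqcrh, Uqcr10, Uqcr11 and Cycs. They were chosen by name, not by their values, though earlier results of these data were known. Each was found by Ensembl identifier among the 49585 genes listed in every sample. RNA-seq had been carried out on bone marrow cells of 6 wild-type (WT) mice and 6 mice deficient in Pon2, the gene of the antioxidant enzyme paraoxonase 2. The comparison of the genotypes asks how the loss of Pon2 alters gene expression in blood stem cells.

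All mice were on the C57BL/6J background as labelled and 10 to 14 weeks old. The WT mice were obtained from Charles River, and the labels do not call them littermates of the mutants. Pon2-/- mice carried, in the whole body, a gene trap with a β-geo reporter between loxP sites in intron 2 of Pon2. The trap lowers the protein strongly without deleting the gene. Cells were sorted as Lin-, Sca1+, ckit+, CD135- and CD150+, with 10 cells in each of 8 wells per mouse. The labels call them LT-HSCs (long-term hematopoietic stem cells), while the gate also holds MPP2 cells, a multipotent progenitor. Each sample is a separate mouse, so p-values measure the spread between mice, and fewer cells of a type cannot be told apart from less RNA per cell.

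In the respiratory chain, complex III accepts electrons from reduced ubiquinone and hands them to cytochrome c, while it moves protons across the inner membrane. It is also a known site of superoxide production, and released cytochrome c assembles the apoptosome, which activates caspases. Hematopoietic stem cells are known for low mitochondrial respiration in the resting state.

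Per sample, between 12967791 and 24228280 reads were counted on genes. Pon2 itself lay between 56.4 and 202 CPM (counts per 1000000 counts of the library after TMM scaling) in WT and between 1.16 and 33.1 CPM in Pon2-/-, without overlap, and at a log2 fold change of -2.13 (SE 0.57, unadjusted edgeR p 0.00222) its adjusted p of 0.586 did not pass the threshold of 0.05. The 10 HSC markers, among them Procr, Mecom and Hlf, were all expressed and summed to 1857 to 2496 CPM in WT and 1788 to 2386 CPM in Pon2-/-. Myeloid markers (10 genes, 7 of them tested) summed to 878 to 11592 CPM in WT and 830.1 to 17830.0 CPM in Pon2-/-. The granulocyte gene S100a8 lay at 0 to 5420.2 CPM in WT and 17.3 to 8577 CPM in Pon2-/-. Elane and Ctsg, which were not tested, had no count in Pon2-/- and a median of 0 in WT. Their highest WT values were 10.1 CPM for Elane and 69.8 CPM for Ctsg. Slc4a1 of red cells, and Cd3e, Cd8a, Trac and Zap70 of T cells, were at 0 in all libraries. Some other genes of these lists were expressed. Lck of T cells lay at 0 to 39.7 CPM in WT and 12.5 to 57.7 CPM in Pon2-/-. Gata1 of the red cell list reached 47.1 CPM in WT and 60.6 CPM in Pon2-/-. Markers of B cells (10 genes, 4 of them tested) summed to 25.5 to 348 CPM in WT and 58.8 to 868 CPM in Pon2-/-. Hbb-bt, an adult beta-globin, was the only gene of the marker lists without overlap, with 6.11 to 38.1 CPM in WT and 0 to 1.11 CPM in Pon2-/- (adjusted edgeR p 0.265). Cd48, a marker of multipotent progenitors, lay between 1.02 and 72.1 CPM in WT and between 61.3 and 205 CPM in Pon2-/- (unadjusted edgeR p 0.0167, adjusted p 1.00). The part of other cells in the results was not tested.

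None of the 10 genes differed between the genotypes by the thresholds used, an adjusted p below 0.05 and a change of more than 1 on the log2 scale. Of the 11848 genes tested with edgeR's quasi-likelihood test, 24 passed (0.203%), 15 higher (0.127%) and 9 lower (0.0760%) in Pon2-/-. All 10 genes had an edgeR adjusted p of 1.00, and none had an unadjusted p under 0.05, against 3.13% of all tested genes. The genotypes overlapped for each of the 10 genes, while 0.633% of tested genes showed no overlap. Log2 fold changes (Pon2-/- over WT) were below 0 for 7 of the 10 genes with a median of -0.15, beside 50.8% below 0 and a median of -0.01 over all tested genes. Of the 7, Uqcrfs1 lay at 0 within rounding, and 6 of 10 were below 0 with DESeq2 or its size factors. Without Pon2-/- replicate 4, a library described further on, 0 of the 10 genes were called, 7 were below 0 and the median was -0.13. The 95% interval of the log2 fold change lay within -1 to 1 for 9 of the 10 genes, all but Cycs, and for 25.5% of all tested genes.

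**Figure D1:**
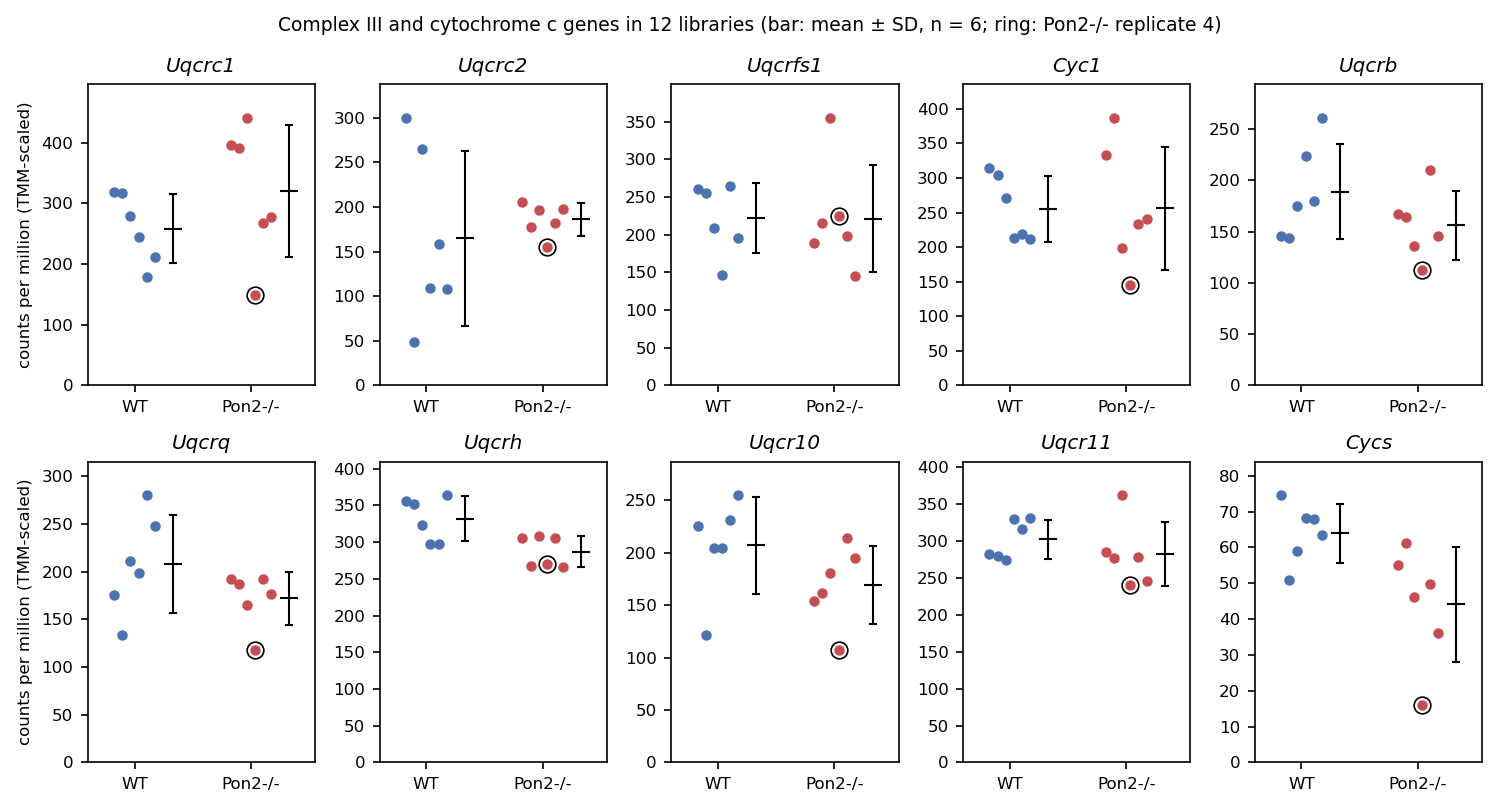
CPM (TMM-scaled, linear axis from 0) of each gene in the 6 WT and 6 Pon2-/- libraries, with 1 point per mouse, the mean and the SD; a ring marks Pon2-/- replicate 4. The genotypes overlap in every panel, and the ringed library is the lowest of all 12 for 7 of the 10 genes.

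The core subunits Uqcrc1 and Uqcrc2 form the matrix arm of the complex and are related to mitochondrial processing peptidases. Uqcrc1 (chromosome 9, 108936633 to 108949623, GRCm38) had 179, 262 and 319 CPM as lowest, median and highest value in WT, and 149, 334 and 441 CPM in Pon2-/-. In Pon2-/-, 3 of 6 libraries lay above every WT library and 1 lay below. The log2 fold change was 0.31 (SE 0.24, 95% interval -0.21 to 0.83), with an exact permutation p of 0.372. Without Pon2-/- replicate 4, it was 0.45 (SE 0.19), with an unadjusted edgeR p of 0.0365, and the gene was not called.

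Uqcrc2 (chromosome 7, 120635176 to 120659524) varied most among WT mice. WT replicate 2 had 48.9 CPM, the median was 134 CPM and WT replicate 1 had 300.0 CPM, whereas the Pon2-/- libraries lay between 155 and 206 CPM with a median of 189.7 CPM. Hence all Pon2-/- values fell inside the WT range. The log2 fold change of 0.17 (SE 0.34, 95% interval -0.56 to 0.91, exact permutation p 0.351) became -0.02 without WT replicate 2. The SD of log2 CPM was 0.97 in WT and 0.15 in Pon2-/-, a contrast in spread that was not tested.

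Uqcrfs1, the Rieske iron-sulfur protein, and Cyc1, the cytochrome c1 that passes the electron to cytochrome c, are catalytic subunits with redox centres. For Uqcrfs1 (chromosome 13, 30540308 to 30545362), the lowest, median and highest values were 146, 232 and 264 CPM in WT and 145, 207 and 355 CPM in Pon2-/-. The means were nearly equal (222 ± 47.0 and 221 ± 71.2 CPM, SD, n = 6 each), and the 95% interval of the log2 fold change ran from -0.46 to 0.46. Cyc1 (chromosome 15, 76343523 to 76346260) had 211, 245 and 314 CPM in WT and 145, 237 and 387 CPM in Pon2-/-. Pon2-/- values spread beyond the WT range on both sides, 2 libraries below and 2 above. Its means were 255 ± 47.2 and 256 ± 88.9 CPM (SD, n = 6 each), with an interval of -0.47 to 0.48 on the log2 scale. As folds, the bounds of these intervals were 0.726 and 1.37 for Uqcrfs1 and 0.722 and 1.39 for Cyc1.

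The third catalytic subunit, cytochrome b, is encoded by mt-Cytb on the mitochondrial genome and is not among the 10 nuclear genes. It had a lowest, median and highest value of 9623, 12123 and 13658 CPM in WT and 12173, 15747 and 17323 CPM in Pon2-/-. In Pon2-/-, 5 of 6 libraries lay above every WT library. The log2 fold change was 0.34 (SE 0.11, 95% interval 0.11 to 0.57), with an unadjusted edgeR p of 0.00628, an adjusted p of 0.918 and an exact permutation p of 0.0108. mt-Cytb therefore did not pass the threshold either. The share of all counts on mitochondrially encoded genes was 4.89% to 8.54% in WT and 5.07% to 9.55% in Pon2-/-.

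**Figure D2:**
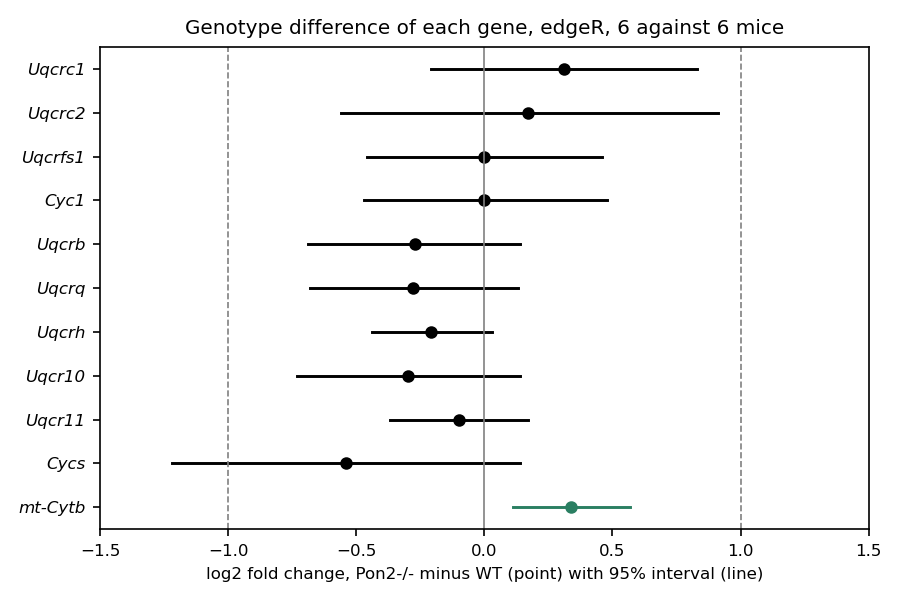
Log2 fold change of each gene (point, Pon2-/- over WT) with its 95% interval (line) from edgeR, 6 against 6 mice; dashed lines mark a change of 1 in either direction. Intervals of the 10 nuclear genes include 0, the interval of Cycs alone reaches beyond -1, and the interval of mt-Cytb (green) runs from 0.11 to 0.57.

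The 5 small subunits lie around the catalytic core. Uqcrb and Uqcrq are known as ubiquinone-binding subunits, Uqcrh is the hinge protein beside cytochrome c1, and Uqcr10 and Uqcr11 are single-span membrane subunits. The mean of each was lower in Pon2-/- than in WT, and none passed the threshold.

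Uqcrh (chromosome 4, 116066965 to 116075071) was the most even of them. It had 297, 338 and 364 CPM as lowest, median and highest value in WT and 266, 288 and 308 CPM in Pon2-/-. In Pon2-/-, 3 of 6 libraries lay below every WT library, and the other 3 overlapped with WT. The log2 fold change was -0.21 (SE 0.11, 95% interval -0.44 to 0.03), with an unadjusted edgeR p of 0.0783 and an exact permutation p of 0.0238, which was 0.746 after Benjamini-Hochberg adjustment over all tested genes. With DESeq2, which called 1.79% of the genes it tested and none of the 10, the adjusted p of Uqcrh was 0.340, the lowest for any of the 10 genes under any alternative.

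Uqcrb (chromosome 13, 66900617 to 66905378) had 144, 178 and 261 CPM in WT and 112, 155 and 210.0 CPM in Pon2-/-. Uqcrq (chromosome 11, 53427922 to 53430831) had 134, 205 and 280.1 CPM in WT and 118, 181 and 192 CPM in Pon2-/-. Uqcr10 (chromosome 11, 4701973 to 4704342) had 122, 216 and 255 CPM in WT and 107, 172 and 214 CPM in Pon2-/-. For these 3 genes the lowest library of all was the same Pon2-/- mouse, replicate 4, and the highest a WT mouse. Their log2 fold changes were -0.27 (SE 0.19), -0.28 (SE 0.19) and -0.30 (SE 0.20), with exact permutation p-values of 0.188, 0.195 and 0.203. Uqcr11 (chromosome 10, 80402997 to 80406830) had 274, 299 and 331 CPM in WT and 240.4, 277 and 362 CPM in Pon2-/-, the Pon2-/- mice holding both the lowest and the highest value. Its log2 fold change was -0.10 (SE 0.13, 95% interval -0.37 to 0.17), with an exact permutation p of 0.273.

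Cycs (chromosome 6, 50562563 to 50566538) encodes cytochrome c itself. The lowest, median and highest values were 50.9, 65.7 and 74.6 CPM in WT and 16.1, 48.0 and 61.2 CPM in Pon2-/-. In Pon2-/-, 4 of 6 libraries lay below every WT library, with 36.0 CPM in replicate 6 and 16.1 CPM in replicate 4 as the lowest. The log2 fold change of -0.54 (SE 0.32, 95% interval -1.22 to 0.14) had an unadjusted edgeR p of 0.111 and an exact permutation p of 0.0152, which was 0.685 after Benjamini-Hochberg adjustment over all tested genes. Without Pon2-/- replicate 4, the log2 fold change was -0.37 (SE 0.25) with an unadjusted edgeR p of 0.160. The interval spans folds of 0.431 to 1.10. Cyct, the testis form of cytochrome c, had 0 counts in all 12 libraries.

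Pon2-/- replicate 4 stood apart for this group of genes. It was the lowest of the 12 libraries for 7 of the 10 genes (Uqcrc1, Cyc1, Uqcrb, Uqcrq, Uqcr10, Uqcr11 and Cycs), whereas it was lowest for 8.31% of all tested genes. The summed level of the 10 genes was 1539 CPM in this library and 1926 to 2453 CPM in the other 11. Of the other chain lists, 2 of 3 had their lowest sum there, at 6528 CPM for nuclear complex I (6624 to 8449 CPM in the others) and 3216 CPM for cytochrome oxidase (3385 to 4243 CPM in the others), while the sum of ATP synthase, 5142 CPM, was lower still in Pon2-/- replicate 6, at 4942 CPM. mt-Cytb, in contrast, was highest in this library, and the megakaryocyte markers were lowest, at 107 CPM against 168 to 266 CPM. Its depth, 14671353 counts, was within the range of the other libraries. Pon2-/- replicate 6 had the next lowest sum of the 10 genes, 1926 CPM, and the highest mitochondrial share, 9.55%. What sets these mice apart was not tested.

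**Figure D3:**
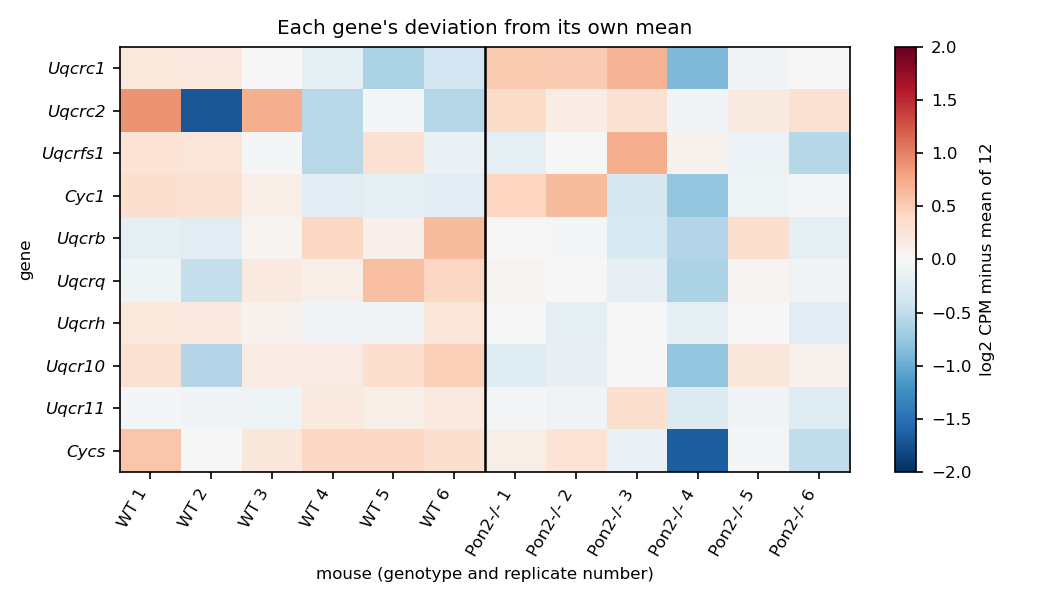
Deviation of each gene's log2 CPM from its own mean over the 12 libraries (colour, from -2 in blue to 2 in red), with 1 column per mouse and a line between the genotypes. Pon2-/- replicate 4 is blue for most genes, and the lowest single value is Uqcrc2 in WT replicate 2, at -1.71.

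The spread between mice of the same genotype differed among the 10 genes. The biological coefficient of variation from edgeR was lowest for Uqcrh (18.9%) and Uqcr11 (20.4%) and highest for Cycs (41.7%) and Uqcrc2 (42.8%), while the common value over all tested genes was 99.2%. It lay below the trend at the same abundance for 9 of the 10 genes, the exception being Uqcrc2 with 42.8% against 36.8%, and for 63.7% of all tested genes. Between the highest and the lowest of all 12 libraries, the ratio was 1.37 for Uqcrh, 1.51 for Uqcr11, 4.64 for Cycs and 6.14 for Uqcrc2.

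Levels of different genes were compared per exon length, as counts per 1000 exon bases and per 1000000 counts of the library. Uqcr11 was highest with 455 ± 56.2 (SD, n = 12), followed by Uqcr10 with 322 ± 76.4, Uqcrh with 250.1 ± 27.5, Uqcrb with 197 ± 47.9, Uqcrfs1 with 163 ± 42.2, Cyc1 with 119 ± 31.5, Uqcrq with 104 ± 24.0, Uqcrc1 with 69.9 ± 21.5, Uqcrc2 with 68.8 ± 26.7 and Cycs with 15.9 ± 4.71. Thus, 4 of the 5 small subunits came first, the core subunits later and the mobile carrier last. Neighbours differed beyond the spread of their within-library difference only at 3 steps. On the log2 scale, Uqcr11 exceeded Uqcr10 by 0.53 (SD 0.33, 12 of 12 libraries), Uqcrh exceeded Uqcrb by 0.38 (SD 0.32, 10 of 12) and Uqcrc2 exceeded Cycs by 2.08 (SD 0.89, 12 of 12). The other 6 steps were smaller than their spread, and Uqcrc1 exceeded Uqcrc2 in only 6 of 12 libraries. Ordered by mean log2 level, the genes had the same places in WT alone and in Pon2-/- alone, but by the arithmetic mean Uqcrc2 (64.7) lay above Uqcrc1 (62.4) in WT. With the length of the longest coding transcript in place of all exons, Uqcr11 remained first and Cycs last, while Uqcrc1 moved from place 8 to place 5.

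**Figure D4:**
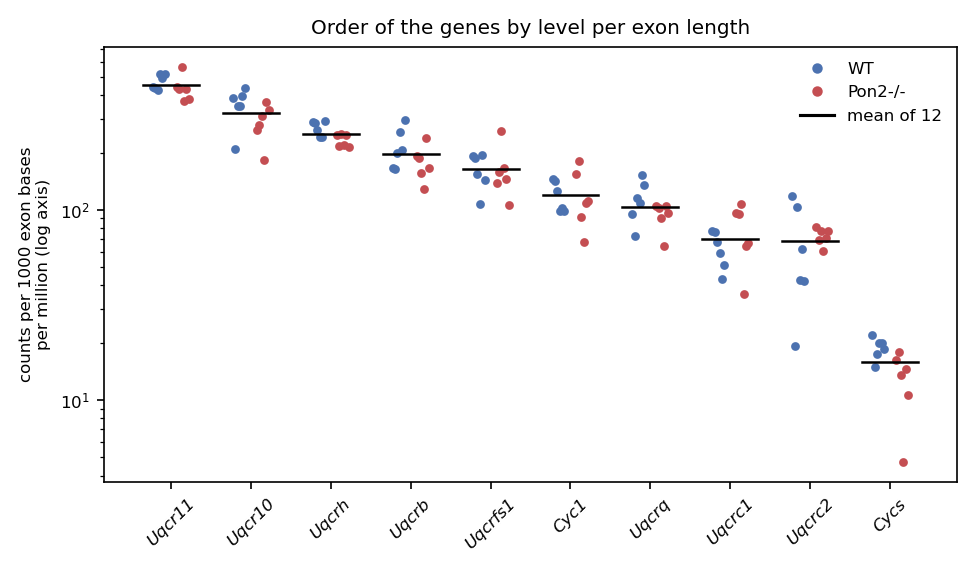
Level of each gene per exon length (CPM per 1000 exon bases, log axis) in WT (blue) and Pon2-/- (red) libraries, ordered by the mean log2 level over 12 libraries; black lines are arithmetic means. Uqcr11 lies highest and Cycs lowest, and the genotypes overlap for every gene.

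The covariation of the small subunits from mouse to mouse leaned in part on Pon2-/- replicate 4, that of the large subunits did not. Over 12 libraries, Pearson's r of log2 CPM had a median of 0.49 (0.18 to 0.84) for the 10 pairs among small subunits, 0.15 (-0.04 to 0.69) for the 6 pairs among Uqcrc1, Uqcrc2, Uqcrfs1 and Cyc1, and 0.02 (-0.43 to 0.35) for the 20 pairs between them. Without Pon2-/- replicate 4 these medians were 0.28 (-0.07 to 0.75), 0.17 (-0.01 to 0.51) and -0.20 (-0.71 to 0.44). Uqcrh did not follow the other small subunits within WT, where its r with them was -0.43 to -0.15. The r values given here rest on 12 libraries, 11 without Pon2-/- replicate 4, 6 within a genotype and 10 without the 2 farthest libraries. The labels name no batch for these libraries, and no r was tested. The closest pair of all 45 was Uqcrq with Uqcr10 (r = 0.84, Spearman's rho = 0.71), with r = 0.83 within WT, 0.80 within Pon2-/-, 0.75 without Pon2-/- replicate 4 and 0.76 without the 2 libraries farthest from the median of Uqcrq. Uqcrb and Uqcrq followed with r = 0.76 (rho = 0.90, 0.63 within WT and 0.87 within Pon2-/-), 0.65 without Pon2-/- replicate 4 and 0.55 without the 2 libraries farthest from the median of Uqcrb. Among the large subunits, only Uqcrc1 and Cyc1 were close (r = 0.69, rho = 0.59, 0.88 within WT and 0.70 within Pon2-/-), with 0.90 without the 2 libraries farthest from the median of Uqcrc1 and 0.51 without Pon2-/- replicate 4.

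Cycs went with the small subunits (median r 0.64, 0.51 to 0.70 over 5 pairs) more than with the large ones (median 0.22, 0.02 to 0.61 over 4 pairs). Part of this rested on 1 mouse, since without Pon2-/- replicate 4 the r of Cycs was 0.35 to 0.46 with the small subunits (median 0.40) and -0.31 to 0.16 with the large ones (median 0.10). Uqcrc1 and Uqcrq had an r of -0.90 within WT and 0.77 within Pon2-/-, over 6 libraries each. The value within Pon2-/- includes replicate 4, the lowest library for both genes, and was not computed without it. Their pooled r of -0.10 became -0.71 without Pon2-/- replicate 4. Whether the sign differs between the genotypes was not tested.

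**Figure D5:**
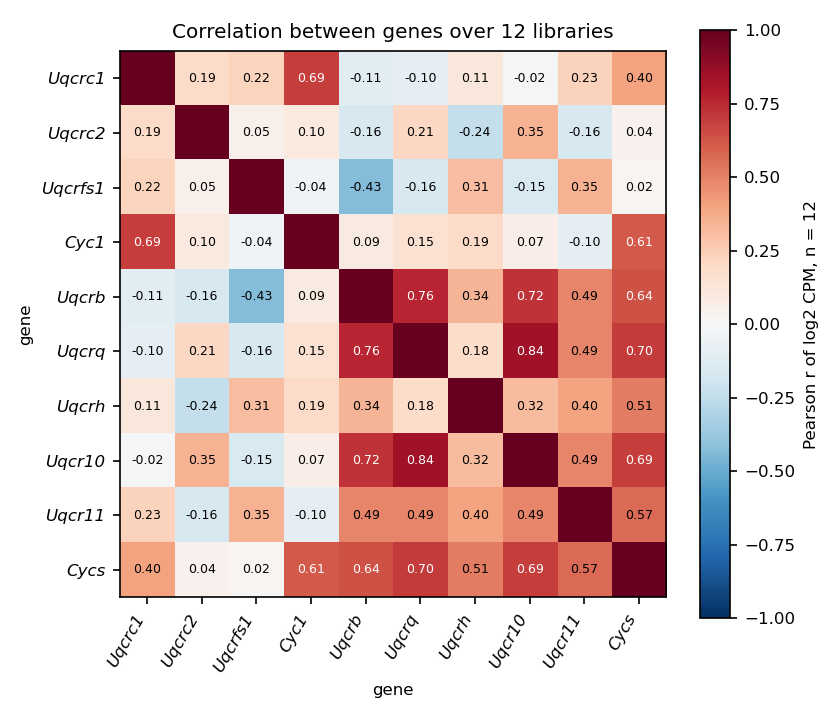
Pearson's r of log2 CPM over 12 libraries for each pair of the 10 genes (colour and printed value). The block of Uqcrb, Uqcrq and Uqcr10 holds r of 0.72 to 0.84, and Cycs lies between 0.51 and 0.70 with all small subunits.

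Among all other tested genes, the one most like each of the 10 over 12 libraries was, for the core subunits, Eif2b2 (Uqcrc1, r = 0.93) and Btbd19 (Uqcrc2, r = 0.91), and for the catalytic ones Atxn10 (Uqcrfs1, r = 0.90) and Ocel1 (Cyc1, r = 0.89). For the small subunits, these were Eny2 (Uqcrb, r = 0.91), Calr (Uqcrq, r = 0.90), Ndufs7 (Uqcrh, r = 0.86), Pex14 (Uqcr10, r = 0.91) and Ncaph2 (Uqcr11, r = 0.87), and for cytochrome c Ddit3 (Cycs, r = 0.94). Of these, Ndufs7 encodes a subunit of complex I. With all other tested genes as candidates and 12 points, such maxima are high for any gene, and they were not tested. The best partner within the group ranked behind 6 other genes for Uqcrq and behind 1712 for Uqcrfs1.

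Promoters of 6 of the 10 genes were in the RefSeq table (GRCm38.p6), each from 250 bases before to 50 bases after the start. They were searched on both strands for letters bound by known regulators of nuclear genes for mitochondria. Only exact matches were counted, so a site that departs from a motif by any letter was missed. The NRF1 motif (GCGCA, any base, then GCGC) was in the promoter of Uqcrc1 (4.6% of all 32851 promoters), the ETS motif CCGGAAG in Uqcrh and Uqcr11 (8.86%), the YY1 motif AANATGGCG in none of the 6 (2.38%) and the CCAAT box, CCAAT, in Uqcrh, Uqcr10 and Cycs (37.4%). The 200 bases before the start of Cycs (chr6:50566570-50566769), Uqcr10 (chr11:4704345-4704544) and Uqcr11 (chr10:80406822-80407021), all on the minus strand, are shown because these genes had a promoter in the table and an r of 0.49 to 0.69 with each other over 12 libraries (0.26 to 0.36 without Pon2-/- replicate 4). Capitals mark a CCAAT box (CCAAT or its reverse complement ATTGG) or an ETS motif.
Cycs: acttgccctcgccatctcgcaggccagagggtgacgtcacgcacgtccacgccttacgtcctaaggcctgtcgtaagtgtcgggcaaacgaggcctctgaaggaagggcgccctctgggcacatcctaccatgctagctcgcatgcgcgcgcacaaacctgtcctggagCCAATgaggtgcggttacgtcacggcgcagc
Uqcr10: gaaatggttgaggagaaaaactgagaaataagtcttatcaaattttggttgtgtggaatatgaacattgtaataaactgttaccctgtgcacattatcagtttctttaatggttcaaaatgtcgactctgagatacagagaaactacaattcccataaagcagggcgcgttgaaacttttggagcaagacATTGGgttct
Uqcr11: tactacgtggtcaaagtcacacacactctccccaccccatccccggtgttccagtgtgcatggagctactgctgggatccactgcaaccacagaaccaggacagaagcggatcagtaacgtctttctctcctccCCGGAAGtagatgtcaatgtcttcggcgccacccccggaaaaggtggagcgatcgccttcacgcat
The windows of Cycs and Uqcr10 hold a CCAAT box and that of Uqcr11 an ETS motif. The window of Cycs also holds tcgcatgcgc, which departs from the NRF1 motif only in its first letter and was not counted. Uqcrh, which also holds a CCAAT box, had an r of 0.51 with Cycs, beside 0.57 for Uqcr11. Without Pon2-/- replicate 4, these values were 0.41 and 0.35. Whether the motifs go with the covariation was not tested. A match of letters does not show that a factor was bound.

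Several of the genes have near copies in the genome, and reads that fit a copy equally well are left out by a count of uniquely mapped reads. Some 50-base words of each gene's longest coding transcript also occurred in transcripts of other genes. Their share was 43.4% for Uqcrb, 28.5% for Cycs, 10.9% for Uqcr11 and 7.83% for Uqcrh. These were mainly transcripts of processed pseudogenes and, for Cycs, of Gm10053. For Uqcrc2 the share was 24.8%, all in Pdzd9, a protein-coding neighbour. Its exons share 504 bases with Uqcrc2, where reads cannot be told apart in libraries without strand. The same holds for 50 exon bases that Uqcrb shares with the overlapping gene Gm10767. The other 5 genes shared no such word. Counts on the copies were few. For Uqcrb they were 25 on Gm5457, 62 on Gm16089 and 24 on Gm2962 over all libraries, beside 37688 on Uqcrb. Gm10053, a Cycs copy annotated as protein coding, had 41 counts beside 12089 on Cycs, Gm16418 had 189 beside 63843 on Uqcr11, Uqcrh-ps1 had 32 beside 68572 on Uqcrh, and Pdzd9 had 59 beside 40441 on Uqcrc2. Reads that fit both a gene and its copy, or bases shared with an overlapping gene, are missing from the counts of both genotypes. The levels of Uqcrb, Cycs, Uqcrc2, Uqcr11 and Uqcrh are therefore lower limits.

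Genes that work with complex III were read from the same fit. Of 14 genes for its assembly and for cytochrome c maturation, 13 were found and tested, 0 were called, and the median log2 fold change was -0.20. Lyrm7, a chaperone for the Rieske protein, had 0.0783 to 28.1 CPM (median 1.66) in WT and 0 to 0.693 CPM (median 0) in Pon2-/-, at a log2 fold change of -5.74 (SE 1.86, unadjusted edgeR p 0.00809, adjusted p 1.00). These are low counts, 860 over the WT libraries and 10 over the Pon2-/- libraries. Uqcc1, needed for the synthesis of cytochrome b, ranged from 17.1 to 88.6 CPM in WT mice and from 0.601 to 181 CPM in Pon2-/- mice, at a log2 fold change of 1.09 (SE 0.79, adjusted edgeR p 1.00).

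The 9 enzymes that feed ubiquinone apart from complex I had a median of 0.16, and 0 were called. The smallest p-values belonged to 2 subunits of complex II, Sdhc (242 ± 49.2 CPM in WT and 282 ± 33.4 CPM in Pon2-/-, SD, n = 6 each) and Sdha (339 ± 66.5 and 383 ± 77.4 CPM), both with an edgeR adjusted p of 1.00. Of 8 genes of the apoptosome and of cytochrome c release, 0 were called, with a median of -0.11. Diablo, an antagonist of caspase inhibitors, had 146 ± 25.3 and 176 ± 50.6 CPM, and Bak1, which opens the outer membrane, 2.32 ± 1.49 and 0.926 ± 1.28 CPM (SD, n = 6 each). Among 12 regulators of nuclear genes for mitochondria the median was 0.13 and 0 were called. Tfam, which packages and transcribes mitochondrial DNA, averaged 127 ± 45.5 CPM in WT and 86.6 ± 51.9 CPM in Pon2-/-, and Gabpa, an ETS factor, 22.3 ± 15.0 and 41.5 ± 9.01 CPM (SD, n = 6 each).

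In the neighbouring complexes, 0 genes were called. The median log2 fold change was -0.05 for 35 nuclear genes of complex I and -0.11 for 11 genes of cytochrome oxidase, which takes the electrons from cytochrome c. Of 15 genes of ATP synthase, 8 were below 0 and 7 above. In complex I, Ndufb6 averaged 112 ± 18.9 CPM in WT and 86.7 ± 13.3 CPM in Pon2-/-, and Ndufb11 156 ± 14.9 and 189 ± 28.5 CPM (SD, n = 6 each). An unadjusted edgeR p under 0.05 was found for 3.13% of all tested genes. Cytochrome oxidase held 2 such genes among its 11, both with an adjusted p of 1.00. These were Cox5b, with 332 ± 53.5 and 265 ± 32.2 CPM and a log2 fold change of -0.33 (SE 0.14, unadjusted edgeR p 0.0321, exact permutation p 0.0346), and Ndufa4, with 428 ± 76.6 and 342 ± 40.9 CPM and a log2 fold change of -0.32 (SE 0.14, unadjusted edgeR p 0.0353, exact permutation p 0.0303). In ATP synthase, Atp5j had 468 ± 79.9 and 417 ± 45.5 CPM, and Atp5a1 824 ± 98.4 and 939 ± 381 CPM (SD, n = 6 each). Whether any of these lists differed from the 10 genes was not tested.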

How the data were processed

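RNA-seq counts of 12 mice were used, 6 per genotype as labelled. The deposited values are raw counts per gene that the authors made from Smart-seq2 libraries. Per the submitters' processing notes and the paper's methods, reads were checked with FastQC 0.11.5, trimmed with Trimmomatic 0.36 and mapped and counted with STAR 2.5.3a on GRCm38.p5. The column of counts without strand was used. Of 49585 gene identifiers, 49326 were found in GENCODE M21, the source of names and positions.

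Genes were filtered with filterByExpr, scaled by TMM and compared in R 4.3.3 with edgeR 4.0.16 (quasi-likelihood F-test, genotype as the only term), with Benjamini-Hochberg adjustment over 11848 genes. A gene was called when its adjusted p was under 0.05 and its log2 fold change exceeded 1 in either direction. Each gene was also compared by a two-sided exact permutation test of mean log2 CPM (prior count 2) over all 924 assignments, whose smallest possible p is 0.00216. Copies were sought with minimap2 2.31 (at least 90% identity over at least 50% of the length) and by shared 50-base words. The script was tested on simulated counts.

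Alternatives were DESeq2's size factors, 2 other count filters, DESeq2 1.42.0, limma 3.58.1 voom with quality weights, robust estimation, the replicate number as a block, the adjusted p alone, a prior count of 0.5, copies added to the counts, another gene length and leaving out each sample. Adding the counts of every gene with at least 5% of a member's words, repeating the fits for mt-Cytb and leaving Pon2-/- replicate 4 out of the correlations were chosen after the data had been seen. The 10 genes and all lists were chosen with earlier results of these data known. The text names the 10 genes, mt-Cytb, Cyct and Pon2, the copies with at least 10 counts, the gene most like each, and from each pathway list those called, those without overlap of the genotypes and the 2 with the smallest p. Of the marker genes it names examples of those at 0 or expressed, S100a8, Cd48 and the gene without overlap. Depth, 12967791 to 24228280 counts per sample, gave at least 232 counts for each of the 10 genes in each sample. Stmp1 was not found under any symbol used here. A result on 1 marker gene is not reported here.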

Additional observations from a re-analysis of the deposited data

Results flagged for a closer look

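Within-genotype values of the 10 genes were checked for 1 library far from the other 5, by the gap to its nearest neighbour divided by the range (Dixon's ratio, at its 95% critical value for 6 samples). Of 20 sets of 6 libraries, 2 passed, where about 1 in 20 would by chance. Uqcrq in Pon2-/- had a ratio of 0.636, with 118 CPM in replicate 4 and 165 to 192 CPM in the others. Uqcr11 in Pon2-/- had a ratio of 0.631, with 362 CPM in replicate 3 and 240.4 to 285 CPM in the others.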

How the results depend on the processing

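None of the 10 genes was called under any alternative, and the lowest adjusted p over all of them was 0.340 (Uqcrh, DESeq2). Over all genes, 24 were called, 305 with DESeq2, 8 without a filter beyond 1 read, 5 with a replicate block and 20 to 28 when single mice were left out. The log2 fold change of Uqcrfs1 was 0.01 with DESeq2 size factors, 0.00 without the filter and 0.01 with DESeq2, and -0.19 to 0.10 when single mice were left out. That of Cyc1 was -0.06 with voom and -0.05 with the replicate block, and -0.15 to 0.12 when single mice were left out. Leaving out single mice gave -0.02 to 0.43 for Uqcrc2, 0.19 to 0.45 for Uqcrc1, -0.38 to -0.16 for Uqcrb, -0.38 to -0.17 for Uqcrq, -0.24 to -0.18 for Uqcrh, -0.41 to -0.20 for Uqcr10, -0.19 to -0.06 for Uqcr11, -0.66 to -0.37 for Cycs and 0.28 to 0.39 for mt-Cytb. The cause was not tested. Mice with the same replicate number were not alike (r of deviations 0.00 to 0.04), and only 1 of 6 mice was most like its own number. Whether mice were handled in pairs cannot be told from these values. With the longest coding transcript as length, Uqcrh took place 2, Uqcr10 place 3, Uqcrc1 place 5, Uqcrfs1 place 7 and Uqcrq place 8. Without WT replicate 2, Uqcrc2 took place 8 and Uqcrc1 place 9. With 6 mice per genotype, changes smaller than the intervals given could not be seen, and DESeq2 and edgeR called different numbers of genes.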
